A study of Rattus norvegicus with 6 samples.

Results

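The genes described here are those of the epidermal growth factor (EGF) receptor system on rat 3' expression arrays: 3 receptors (Egfr, Erbb2 and Erbb3), 6 ligands (Areg, Ereg, Hbegf, Tgfa, Btc and Nrg1) and the inhibitor Errfi1. All probe sets that the platform annotation gave to 1 of these genes alone were taken, and the probe set of highest mean over the arrays stood for its gene. That gave 20 probe sets for 10 genes, out of 20826 probe sets that name 1 gene and 14217 genes in all. The arrays held RNA of mammospheres, balls of cells that dissociated mammary cells form in suspension. The hCG group (3 arrays, numbered 5, 6 and 7) came from female Sprague Dawley rats injected into the abdomen with recombinant human chorionic gonadotropin, the pregnancy hormone, at 100 IU per day for 21 days from 55 days of age. The Control group (3 arrays, also 5, 6 and 7) came from rats of the same strain, sex and age given phosphate buffered saline. In both groups glands 4 and 5 were taken 21 days after the last injection, and cells enriched for epithelium grew for 7 days in medium with heparin at 4 µg/ml and with EGF and basic fibroblast growth factor, each at 10 ng/ml. Both groups were thus supplied with an EGF receptor ligand throughout culture. Whether an array is 1 animal or a pool is not given in the sources used here, so each p-value is set by how far these samples vary, and that variation may be technical.

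EGF receptor family proteins are cell surface tyrosine kinases that work in pairs. Areg, Ereg, Hbegf, Tgfa and Btc are made as membrane-bound precursors, are cut free by ADAM proteases and bind the EGF receptor, while the neuregulin Nrg1 binds Erbb3; Erbb2 has no known ligand and serves as a partner. Errfi1 (also called Mig6, Ralt or gene 33) binds the kinase domain of active receptors, blocks it and promotes their uptake from the surface, and its own transcription is switched on by receptor signalling. In the mouse mammary gland, amphiregulin from hormone-sensing luminal cells carries the estrogen signal to EGF receptors of the stroma, a step needed for ducts to grow.

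In spheres of hCG-treated rats, Egfr and Errfi1 were higher than in spheres of controls, by 1.60-fold and 1.66-fold. For Egfr this was the brightest probe set; a second one above the filter level had a change of 1.13-fold with overlapping groups, and with their mean Egfr was not called. Egfr and Errfi1 were the 2 members called by limma's moderated test (adjusted p under 0.05 over 10424 genes), and both lay above 8 on the log2 scale in every hCG array. Of the ligands, 0 were called: Tgfa was lower by 1.33-fold and just missed the threshold, Ereg had the largest change of any member, at 2.35-fold lower, with control arrays that varied too widely for a call, and Areg overlapped between the groups. Erbb2, Hbegf and Nrg1 had changes of 1.09-fold or less in either direction, and Erbb3 and Btc were below the filter level of 2.67, under which the dimmest 40% of probe sets lay. Over all genes tested, 1.82% were called, 1.01% higher and 0.815% lower in hCG spheres. Of 8 members tested, 2 were called higher and 0 lower, and 3 had groups that did not overlap, Egfr, Errfi1 and Tgfa, against 31.6% of all genes tested (19.3% with all hCG arrays above all Control arrays and 12.3% below). The members were chosen with earlier results of these data known, so these counts carry no test of the family.

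The 250 bases before the gene starts of Egfr and Errfi1, are shown because these were the 2 members called higher. The sequences are RefSeq's for the rat assembly GRCr8, 5' to 3'. Both genes lie on the plus strand, and the windows are chr14:95378376-95378625 for Egfr and chr5:166606591-166606840 for Errfi1. Capitals mark motif matches on either strand.
Egfr: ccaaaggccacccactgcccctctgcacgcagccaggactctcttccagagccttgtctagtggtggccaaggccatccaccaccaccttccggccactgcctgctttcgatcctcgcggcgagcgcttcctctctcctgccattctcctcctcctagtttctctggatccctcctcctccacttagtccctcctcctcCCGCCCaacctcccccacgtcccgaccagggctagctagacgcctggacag
Errfi1: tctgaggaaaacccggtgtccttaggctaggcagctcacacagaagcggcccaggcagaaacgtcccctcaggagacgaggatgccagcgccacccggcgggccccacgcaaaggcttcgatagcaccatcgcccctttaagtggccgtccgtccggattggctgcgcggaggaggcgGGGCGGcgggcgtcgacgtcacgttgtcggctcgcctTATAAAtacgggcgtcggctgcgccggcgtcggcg
The motifs searched were the GC box (GGGCGG), the TATA box (TATAAA), the AP-1 site (TGANTCA), the cyclic AMP response element (TGACGTCA) and the E-box (CACGTG), none of which overlapped another in these windows. Egfr held 1 GC box, starting 51 bases before the gene start, and no TATA box. Errfi1 held 1 GC box at 72 bases and 1 TATA box at 35 bases before the start. Among 33469 rat promoters of the same length, 30.5% held a GC box, 12.9% a TATA box, 6.34% an AP-1 site, 1.59% a cyclic AMP response element and 5.59% an E-box. Both windows were rich in G and C, at 63.6% in Egfr and 67.2% in Errfi1, against a median of 51.2%. The promoter table held 7 of the 10 members, and 6 of these 7 had a GC box; Erbb3, Ereg and Nrg1 were not among them.

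Egfr encodes the receptor of EGF and of most of the ligands measured here. Its brightest probe set (1381145_at) had log2 levels of 8.60, 8.33 and 8.53 on hCG arrays 5, 6 and 7, against 7.85, 7.93 and 7.65 on Control arrays 5, 6 and 7. The lowest hCG array lay above the highest Control array. The log2 change was 0.68 (SE 0.11, 95% interval 0.41 to 0.95, limma adjusted p = 0.0439, n = 3 arrays per group). A second Egfr probe set (1370830_at) did not show this difference: it had 7.22, 7.06 and 6.96 on hCG arrays against 7.21, 6.73 and 6.75 on Control arrays. Its groups overlapped, with a log2 change of 0.18 (95% interval -0.17 to 0.54, limma adjusted p = 0.516 over 18625 probe sets). The third (1385413_at) was dim, between 1.80 and 2.16 on all arrays. The part of the transcript that each probe set reads is not given in the sources used here, and with the mean of the 2 brighter probe sets the change was 0.43 and Egfr was not called (limma adjusted p = 0.0842).

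Erbb2, the ligandless partner receptor known for its amplification in breast cancer, had 4.11, 4.00 and 4.17 on hCG arrays, against 3.92, 4.02 and 4.60 on Control arrays. The 3 hCG values lay inside the range of the controls, whose spread came from Control 7. The change was -0.09 (95% interval -0.51 to 0.34, limma adjusted p = 0.805). Erbb3, the neuregulin receptor with little kinase activity of its own, was between 1.84 and 1.99 on hCG arrays and between 1.90 and 1.93 on Control arrays, all below the filter level. A single probe set read each of these 2 genes. At such signal a transcript may be absent or present at a level the probe set does not resolve.

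**Figure D1:**
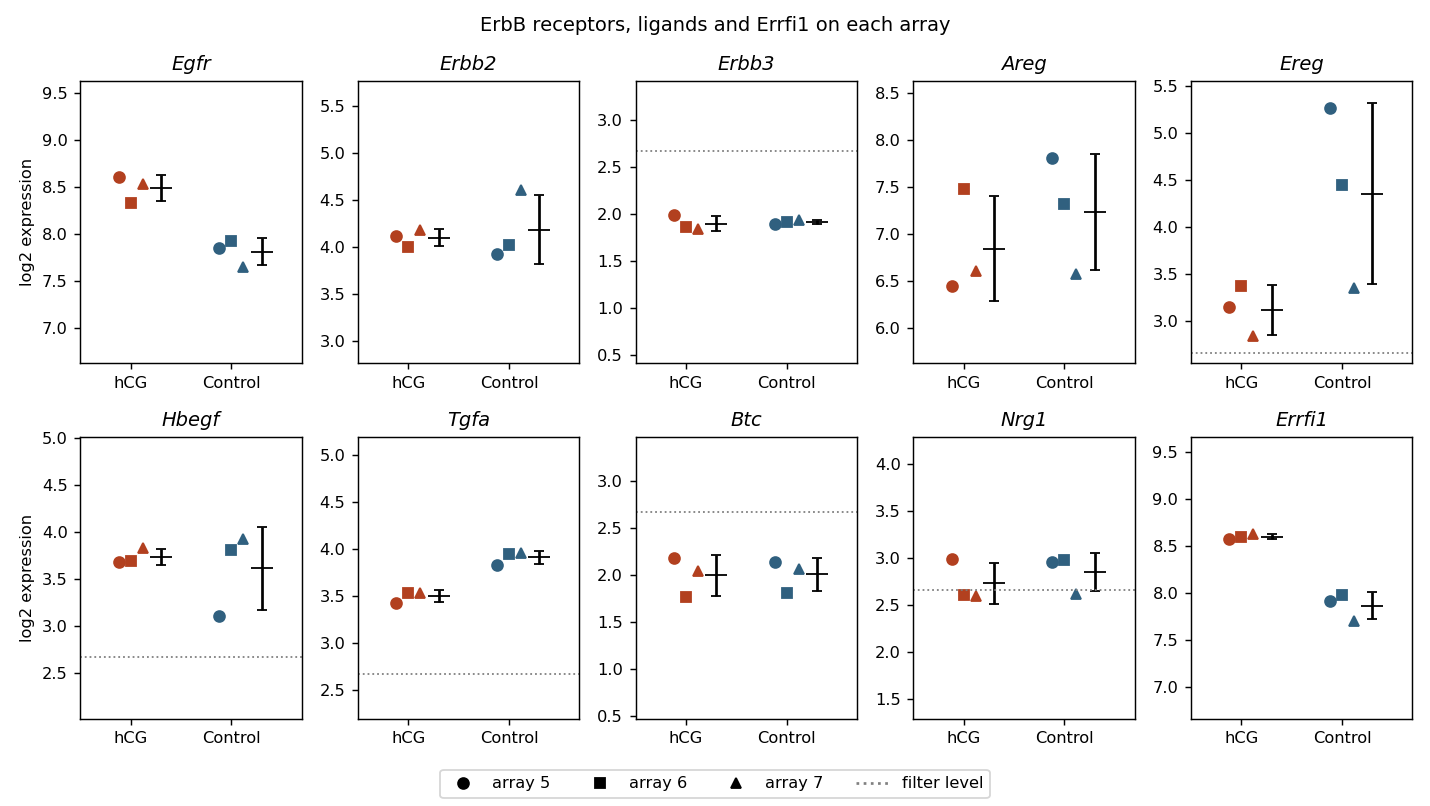
Log2 expression of the 10 genes on each array, 1 panel per gene, hCG arrays left and Control arrays right. Every panel spans 3 log2 units; symbols give the array number, bars the mean ± SD (n = 3), and the dotted line the filter level of 2.67. In Egfr and Errfi1 the 3 hCG arrays sit above the 3 Control arrays, in Tgfa below them, and in Ereg and Areg the Control arrays are spread widely.

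Errfi1 had the smallest p of the members, and was number 35 by p among the 10424 genes tested. Its probe set (1373093_at) had log2 levels of 8.58, 8.60 and 8.63 on hCG arrays, against 7.92, 7.98 and 7.71 on Control arrays. The hCG arrays were close to each other (8.60 ± 0.03, SD, n = 3), and the Control arrays more spread (7.87 ± 0.14, SD, n = 3). The change was 0.74 (SE 0.09, 95% interval 0.51 to 0.96, limma adjusted p = 0.0353, 1.66-fold higher). The gene had 1 probe set, so no second measurement of it was at hand. On both genes called, Control 7 was the lowest array of all 6.

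Areg, amphiregulin, was measured by 1 probe set well above the filter level. It had 6.45, 7.48 and 6.61 on hCG arrays, against 7.81, 7.32 and 6.58 on Control arrays. Each group held a high and a low array: hCG 6 was above Control 6 and Control 7, and Control 7 was level with hCG 5 and hCG 7. The change was -0.39 (SE 0.37, 95% interval -1.27 to 0.49, limma adjusted p = 0.564).

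Ereg, epiregulin, is read by a probe set of moderate to low signal. It had 3.15, 3.38 and 2.84 on hCG arrays, against 5.27, 4.45 and 3.35 on Control arrays. The controls were spread widely, and the groups overlapped because Control 7 lay just under hCG 6. The change was -1.24 (SE 0.45, 95% interval -2.29 to -0.18), with an unadjusted limma p of 0.0281 and an adjusted p = 0.161. Without Control 7 it was -1.74 and passed (limma adjusted p = 0.0374), and without Control 5 it was -0.78 (adjusted p = 0.286).

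Areg and Ereg are neighbours in the rat genome. On the same chromosome the order is Btc, Areg, Ereg and Epgn, with 0 annotated genes between each neighbouring pair in the GRCr8 annotation. Across the arrays Areg and Ereg shared part of their pattern: Control 5 was highest and Control 7 lowest of the controls in both, and hCG 6 was the highest hCG array in both. Btc showed neither the level nor the pattern, at 2.18, 1.76 and 2.04 on hCG arrays, against 2.14, 1.81 and 2.06 on Control arrays, all below the filter level. Its change without the filter was -0.01 (95% interval -0.33 to 0.31, limma adjusted p = 0.977). Epgn had no probe set that named it alone.

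Among the genes tested, the 5 whose levels ran most like those of Ereg over the 6 arrays were Slc25a21 (Pearson r 0.996), Hmox1 (0.993), Adi1 (0.991), F13a1 (0.988) and Tmx4 (0.988). These values describe 6 arrays of 2 groups and carry no test. Hmox1, which encodes the heme-degrading enzyme heme oxygenase, had 8.07, 8.21 and 8.02 on hCG arrays, against 9.38, 8.85 and 8.32 on Control arrays. F13a1, the coagulation factor XIII A chain, had 1.85, 2.57 and 1.74 on hCG arrays, against 5.00, 4.20 and 2.18 on Control arrays. Only its values on Control 5 and Control 6 lay above the filter level. In Hmox1 and F13a1, as in Ereg, Control 7 lay nearest to the hCG arrays. Limma's adjusted p of the 5 genes lay between 0.136 and 0.185, so none was called. Areg, with r of 0.81, was 647th in that order.

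Tgfa, transforming growth factor alpha, had the tightest groups of the ligands tested. Its brighter probe set (1381449_s_at) had 3.43, 3.53 and 3.53 on hCG arrays, against 3.83, 3.94 and 3.96 on Control arrays. All hCG arrays were below all Control arrays. The change was -0.41 (SE 0.08, 95% interval -0.60 to -0.22), and limma's adjusted p = 0.0559 missed the threshold. In Affymetrix naming the suffix of this probe set marks probes that can match transcripts of more than 1 gene, although the annotation names Tgfa alone. The second Tgfa probe set (1387450_at) was below the filter level, at 1.67, 1.82 and 1.90 on hCG arrays against 1.94, 2.33 and 1.95 on Control arrays; its groups did not overlap either, with a change of -0.27 (95% interval -0.57 to 0.02, limma adjusted p = 0.334 over all probe sets without the filter).

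Hbegf, heparin-binding EGF-like growth factor, had 3.67, 3.69 and 3.82 on hCG arrays, against 3.10, 3.81 and 3.92 on Control arrays. Only Control 5 lay apart from the other 5 arrays, and it lay lower, where in Areg and Ereg the same array was highest. The change was 0.12 (95% interval -0.38 to 0.62, limma adjusted p = 0.763).

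Nrg1 is a large gene with many transcript forms, and 8 probe sets named it. The brightest (1369783_a_at) had 2.99, 2.62 and 2.60 on hCG arrays, against 2.96, 2.98 and 2.62 on Control arrays, close to the filter level, with a change of -0.12 (95% interval -0.47 to 0.23, limma adjusted p = 0.660). With 1 array left out in turn this change lay between -0.25, without hCG 5, and -0.05, without hCG 7, and it was -0.24 without Control 7. The other 7 were below that level, and their signs differed. Probe set 1370607_a_at had 2.32, 1.96 and 2.30 on hCG arrays, against 2.59, 2.64 and 2.88 on Control arrays, a change of -0.51 (95% interval -0.81 to -0.21) with no overlap. Probe set 1371218_a_at had 2.52, 2.20 and 2.34 on hCG arrays, against 2.18, 2.07 and 2.17 on Control arrays, a change of 0.21 (95% interval -0.02 to 0.45) with no overlap. Neither was called without the filter (limma adjusted p = 0.108 and 0.347 over all probe sets), and the remaining 5 overlapped, with changes from -0.23 to 0.02. Over the 9 member probe sets above the filter level, 2 were called, 1 of Egfr and 1 of Errfi1, where 1.6% of all probe sets tested were. This count carries no test of the family either, since its members were chosen with earlier results known.

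**Figure D2:**
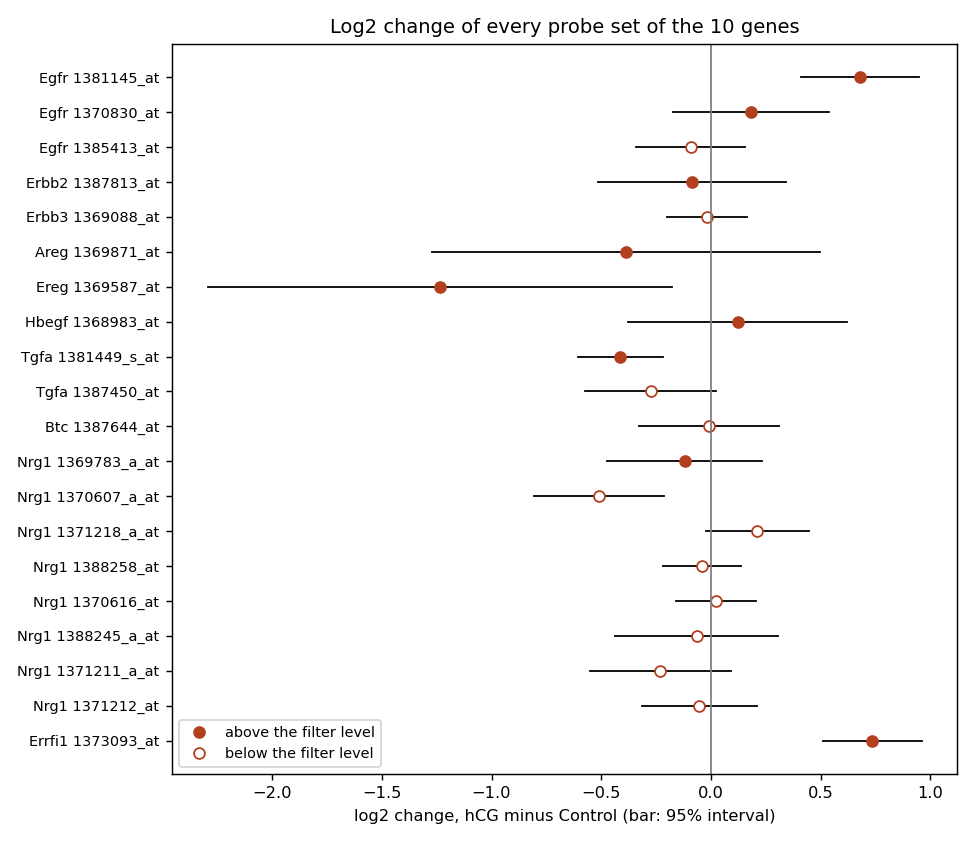
Log2 change, hCG minus Control, of all 20 probe sets of the 10 genes, with 95% intervals from limma (n = 3 arrays per group). Filled points are the 9 probe sets above the filter level and open points the 11 below it. The intervals of the brightest Egfr probe set and of Errfi1 lie above 0, those of Ereg, the brighter Tgfa probe set and the dim Nrg1 probe set 1370607_a_at below 0, and that of the second Egfr probe set at 0.18 spans 0.

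The calls on Egfr and Errfi1 rested on most arrays together. Both held without hCG 6 (limma adjusted p = 0.0389 for each) and without Control 7 (limma adjusted p = 0.0409 for Egfr and 0.0160 for Errfi1). Without hCG 5, hCG 7, Control 5 or Control 6 limma called 0 of 10424 genes, while 1454 to 1953 genes had a raw p under 0.05 in these settings and 2510 did with all arrays. The sizes moved little: with 1 array left out in turn, the change lay between 0.60 and 0.76 for Egfr, between 0.65 and 0.79 for Errfi1 and between -0.45 and -0.38 for Tgfa. For Ereg it lay between -1.74 and -0.78, and for Areg between -0.72 and -0.10.

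**Figure D3:**
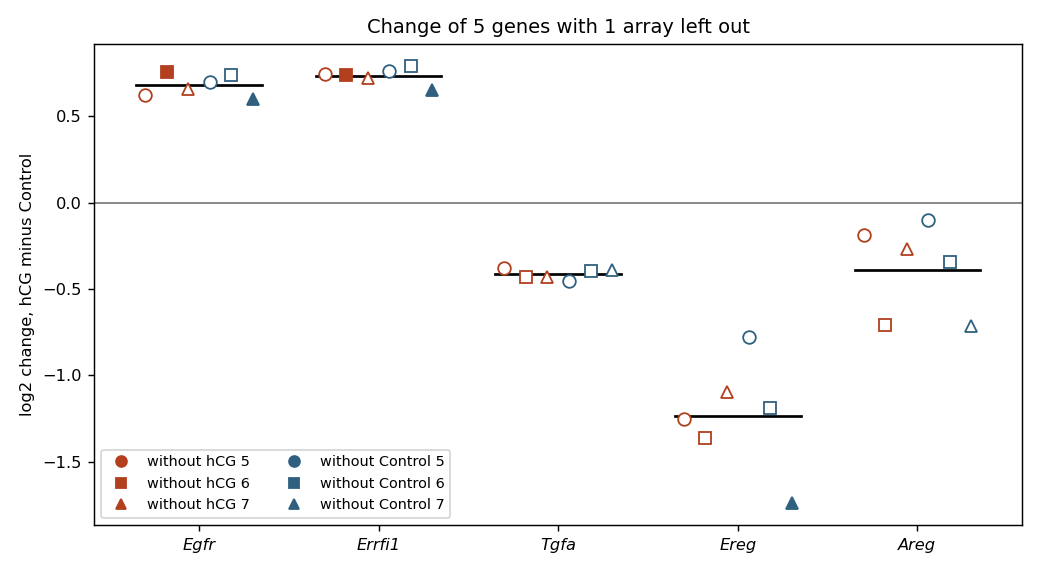
Log2 change, hCG minus Control, of 5 genes with 1 array left out in turn; symbol and colour give the array left out, filled symbols are called by limma at an adjusted p under 0.05, and the black line is the value with all 6 arrays. Egfr, Errfi1 and Tgfa keep their size in every case, while Ereg runs from -1.74 without Control 7 to -0.78 without Control 5.

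Markers of cell types other than epithelium were also measured in spheres of both groups, and the levels of some moved with the groups. Of 12 luminal and 12 basal epithelial markers, 11 and 9 were above the filter level, as were 11 of 14 endothelial, 11 of 12 fibroblast and 6 of 12 macrophage markers. The mean log2 level of the endothelial markers was 4.96, 5.02 and 4.90 on hCG arrays, against 3.58, 3.76 and 4.36 on Control arrays, with Cdh5, Tie1 and Vwf below the filter level. Of the 11 endothelial markers tested, 10 had a change above 0 and 5 were called higher, beside 1.01% of all genes tested. Fibroblast markers had 9.83, 9.64 and 9.80 on hCG arrays, against 9.54, 9.49 and 9.63 on Control arrays, so that Control 7 came close to hCG 6. They did not move as one: of the 11 tested, 8 had a change above 0, and 1 was called higher and 1 lower. Basal epithelial markers had 5.66, 5.83 and 5.89 on hCG arrays, against 4.43, 5.19 and 5.61 on Control arrays. All 9 tested had a change above 0, and 0 were called. Of 8 adipocyte markers 2, Lpl and Fabp4, were above the filter level, and Adipoq, Plin1, Lep, Cidec, Pparg and Retn were not. The mean of these 2 was 8.83, 8.82 and 8.83 on hCG arrays against 7.67, 7.82 and 8.10 on Control arrays. Both had a change above 0, and 1 was called higher. The mean levels of these 4 lists thus lay higher on every hCG array, as Egfr and Errfi1 did, and their part in the 2 changes was not tested. In such mixed RNA, a different share of cells and a different amount of RNA per cell cannot be told apart.

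Among the 3 controls, the order of the arrays in Areg, Ereg and Hbegf went with that in epithelial, endothelial and adipocyte markers, reversed for Areg and Ereg. Luminal markers had 5.65, 5.51 and 5.34 on hCG arrays, against 5.25, 6.18 and 6.67 on Control arrays. Of the 11 luminal markers tested, 2 had a change above 0, 0 were called higher and 1 was called lower. Control 5, the control with most Ereg and Areg, was the lowest of the 6 arrays in both epithelial lists, and Control 7, with least, was the highest control in both. Control 5 was also the lowest of the 6 arrays in the endothelial and adipocyte lists, so this order was not particular to epithelium. The hCG arrays did not follow this order. Of these, hCG 6 was highest in Ereg and Areg but the middle one in both epithelial lists. Macrophage markers did not follow the groups, at 4.51, 4.93 and 4.89 on hCG arrays, against 4.98, 4.32 and 4.33 on Control arrays, with Csf1r, Cd163, C1qa, C1qb, C1qc and Mrc1 below the filter level. Of 8 lymphocyte markers the leukocyte gene Ptprc alone was above it, at 2.07, 3.19 and 2.97 on hCG arrays, against 4.13, 3.81 and 3.55 on Control arrays. The part of any of these in the ligand values was not tested.

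Array medians lay between 3.44 and 3.48. Bacterial poly-A transcripts that are mixed into the RNA before labelling were lower on hCG arrays, at 4.32, 4.90 and 4.31, against 5.43, 5.53 and 5.71 on Control arrays, and this difference accompanied every change given here. The 3' minus 5' signal of beta-actin, a measure of RNA integrity, was between 1.55 and 1.75 on hCG arrays and between 1.46 and 2.18 on Control arrays, highest on Control 7. That of GAPDH was between 0.05 and 0.16 on hCG arrays and 0.22, 0.11 and 0.67 on Control arrays 5, 6 and 7. The part of the poly-A transcripts or of RNA integrity in the results was not tested.

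Of the other genes of the pathway, Myc was called higher and Ccnd1 lower, and no gene of the receptor, shedding, kinase or down-regulation lists was called. The 6 lists named 93 genes, of which 69 were tested. The 2 calls among 69, or 2.90%, stand beside 1.82% over all genes. Groups did not overlap in 23, or 33.3%, beside 31.6% of all genes. The median change was 0.02, beside 0.03 over all genes tested. The lists, like the members, were chosen with earlier results of these data known.

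The other receptor and ligand genes were mostly dim, and Epgn and Nrg3 had no probe set that named them alone. Erbb4, Nrg2 and Nrg4 were below the filter level, and Egf, the founding ligand, was the 1 gene tested, at 2.86, 3.36 and 2.76 on hCG arrays against 2.91, 2.93 and 2.19 on Control arrays (change 0.32, limma adjusted p = 0.466). Its groups overlapped, and the change was 0.07 without Control 7 and 0.13 without hCG 6. The EGF supplied in the medium is a protein and does not appear in these values.

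Of genes for the shedding and trafficking of ligands, a protease inhibitor among them, 9 were tested, 4 with a change above 0 and 5 below. The median was -0.01. Groups did not overlap in 3, or 33.3%, beside 31.6% of all genes. Besides Timp3 these were Rhbdf2 (-0.34, limma adjusted p = 0.138) and Frmd8 (-0.24, limma adjusted p = 0.182), both lower on hCG arrays. Timp3, an inhibitor of ADAM proteases held in the matrix, had the largest change: 10.36, 10.01 and 9.76 on hCG arrays, against 9.67, 9.51 and 9.61 on Control arrays (0.44, SE 0.15, limma adjusted p = 0.147). The groups did not overlap on this probe set, and without hCG 5 the change was 0.29. The 4 Timp3 probe sets had changes from 0.40 to 0.63, and in the dimmest of them the groups overlapped. Adam15, a membrane-bound metalloproteinase, had 4.89, 5.06 and 4.98 on hCG arrays, against 4.33, 4.46 and 4.96 on Control arrays (0.40, SE 0.17, limma adjusted p = 0.207). Control 7 alone reached the hCG range, and without it the change was 0.59 and passed (limma adjusted p = 0.0349). Adam17, the main protease for Areg, Ereg, Hbegf and Tgfa, had a change of 0.02 (limma adjusted p = 0.916), and was singled out after its value was seen.

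The adaptor and Ras-MAP kinase list had 12 genes tested, 6 above 0 and 6 below, with a median of 0.02. Gab1, a docking protein for PI3 kinase and the phosphatase Shp2, had 6.98, 6.49 and 6.73 on hCG arrays, against 6.29, 6.15 and 6.40 on Control arrays (0.45, SE 0.14, limma adjusted p = 0.123). The small GTPase gene Nras had 8.38, 8.46 and 8.44 on hCG arrays, against 8.02, 7.97 and 8.25 on Control arrays (0.35, SE 0.10, limma adjusted p = 0.107). In both genes all hCG arrays lay above all Control arrays, although a second Nras probe set overlapped (0.15). Without Control 7 the change of Nras was 0.43 and passed (limma adjusted p = 0.0374). The PI3 kinase and STAT list had 9 genes tested, 3 above 0 and 6 below, with a median of -0.10, which was -0.0071 without Control 7. Its 2 largest changes were those of the PI3 kinase subunit Pik3r1 (-0.20, limma adjusted p = 0.362) and Stat5b, a transcription factor of prolactin signalling (0.15, limma adjusted p = 0.405). Both overlapped, and Stat5b was close to the filter level. The kinase gene Akt1 had a change of like size (-0.15, limma adjusted p = 0.275), with all hCG arrays below all Control arrays. It was named after its value was seen.

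The list of genes around receptor down-regulation had a median change of 0.00 over 14 tested, 7 above 0 and 7 below. Lrig1, a membrane protein that binds ErbB receptors and promotes their breakdown, had 8.72, 8.08 and 8.48 on hCG arrays, against 7.57, 7.70 and 7.70 on Control arrays. All hCG arrays were above all Control arrays, with hCG 6 nearest to them. The change was 0.77 (SE 0.16, limma adjusted p = 0.0622), and without hCG 6 it was 0.94 and passed (adjusted p = 0.0276). The phosphatase gene Ptpn2 had 8.25, 8.21 and 8.19 on hCG arrays, against 8.03, 8.03 and 7.96 on Control arrays (0.21, SE 0.07, limma adjusted p = 0.148).

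Early genes that EGF and the kinase ERK switch on had 24 members tested, 14 above 0 and 10 below, with a median of 0.09, which was 0.03 without hCG 5, 0.05 without Control 5 and 0.14 without Control 7. Of these 1 was called higher and 1 lower, and groups did not overlap in 12, or 50.0%, beside 31.6% of all genes. These 12 went in both directions, some higher and some lower on hCG arrays. Myc, the growth-promoting transcription factor, had 7.13, 7.45 and 7.42 on hCG arrays, against 6.30, 6.51 and 6.61 on Control arrays. Every hCG array was above every Control array (0.86, SE 0.13, limma adjusted p = 0.0368, 1.81-fold higher). Ccnd1, cyclin D1, which drives cells through G1, had 7.16, 7.27 and 7.18 on hCG arrays, against 8.05, 7.92 and 8.15 on Control arrays. Every hCG array was below every Control array (-0.84, SE 0.09, limma adjusted p = 0.0289, 1.79-fold lower), and its other 2 probe sets had changes of -0.76 and -0.96, also with no overlap. The 2 called genes of this list thus moved in opposite directions.

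**Figure D4:**
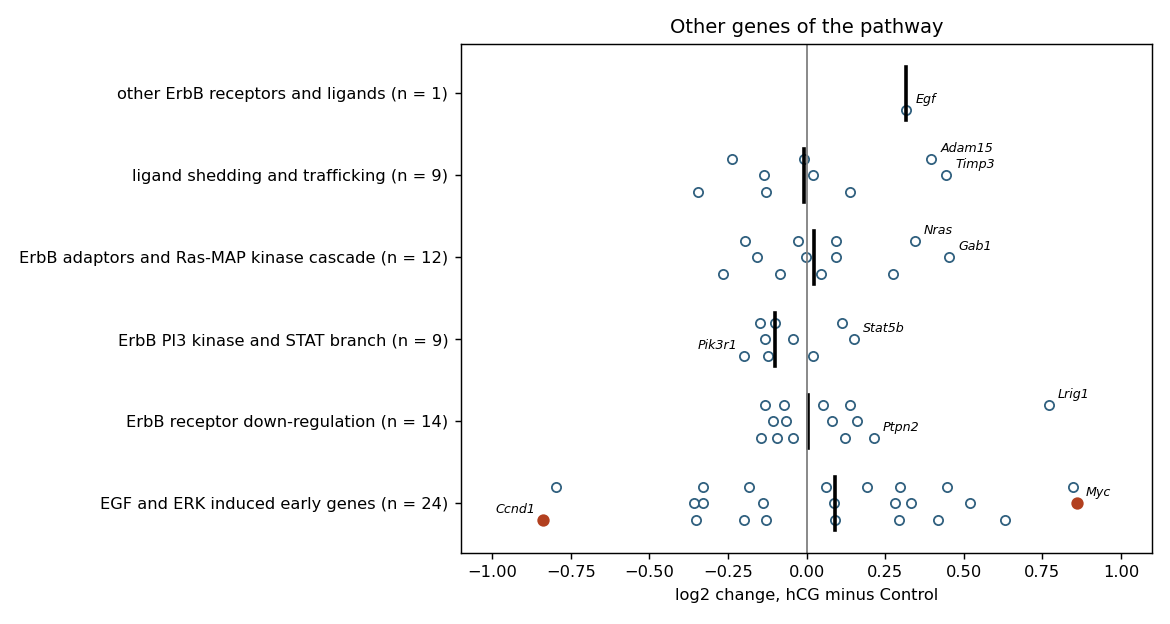
Log2 change, hCG minus Control, of the 69 tested genes of 6 pathway lists; each circle is a gene, filled where limma's adjusted p was under 0.05, the black bar is the median of its list, and the vertical offset has no meaning. The medians lie between -0.10 and 0.32, the last being 1 gene, and the filled circles are Myc at 0.86 and Ccnd1 at -0.84.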

How the data were processed

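RNA of 6 mammosphere samples was labelled by the 2-cycle protocol and read on Affymetrix 3' arrays, per the labels' protocols. The values are the deposited log2 expression table of the authors, with 31099 probe sets and 0 missing values. Per the submitters' processing notes, MAS5, RMA and limma were used; neither versions nor roles are stated. The log base and the normalization were inferred from the values, which ran from 0.74 to 13.1 with like distributions on all arrays, so a shift common to most transcripts is hidden.

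Groups came from the sample titles. After removal of 57 control probe sets, those whose mean over the 6 arrays was among the lowest 40% (below 2.67) were dropped, leaving 18625. For each of 10424 genes the brightest one left was used. Of 31042 probe sets, 20826 named 1 gene in the platform annotation, 436 several and 9780 none; 20758 symbols were updated through Entrez numbers with RefSeq's GRCr8 gene table. The hCG and Control arrays were compared with limma 3.58.1 (R 4.3.3; functions lmFit and eBayes), fitted on all tested probe sets, two-sided, with Benjamini-Hochberg adjustment over genes (over probe sets where said), at adjusted p under 0.05. There were 4 residual degrees of freedom, and the number of arrays limits the precision. The fit was tested on simulated data. Members below the filter level were fitted without it.

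The members and lists were chosen with earlier results of these data known. Genes named were the members and every called gene of a pathway list, or otherwise its 2 largest changes. The 5 genes most like the tested member of largest change were named as well. Adam17, Rhbdf2, Frmd8 and Akt1 were added after their values were seen. The alternatives changed the filter (none, or 60%), the scaling (cyclic loess, quantiles or medians), the model (array weights, a block for array number, the trend or robust option of eBayes), the summary per gene (averaging its probe sets) and the samples (leaving out each array). A variance prior from the chosen probe sets alone was added after seeing the data.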

Additional observations from a re-analysis of the deposited data

How the results depend on the processing

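The array number as a block lowered the genes called to 118, against 190 without it, with 85 shared, and left 0 members and 0 member probe sets called (limma adjusted p = 0.0805 for Egfr and 0.0573 for Errfi1). Same-numbered hCG and Control arrays had deviations with correlations of -0.09, 0.13 and 0.0015, and not every array went most closely with its own number. What the number stands for is not given in the sources used here. With 3 arrays per group these correlations cannot show whether same-numbered arrays share a batch. With array weights 2663 genes, 4 members (Egfr, Ereg, Tgfa and Errfi1), 4 member probe sets and 22 pathway genes were called, and 306 genes with a variance trend. The other settings that kept all arrays called 159 to 267 genes. With 1 array left out, the counts ran from 0 to 586 for genes, 0 to 3 for members, 0 to 3 for member probe sets and 0 to 6 for pathway genes. The high ends came without Control 7. The 0 counts came without hCG 5, hCG 7, Control 5 or Control 6, when limma found 1648, 1454, 1953 and 1933 genes at a raw p under 0.05. Tgfa passed with the mean of probe sets per gene (limma adjusted p = 0.0475) and with the variance prior added after seeing the data (0.0486). Changes near 0 turned sign. Erbb2 was 0.12 with array weights and -0.22 to 0.12 with 1 array left out. Hbegf ran from -0.13 to 0.28 and Erbb3 from -0.064 to 0.0094 in that way. Btc was 0.0022 with median centring, 0.0060 with quantile normalization, 0.016 with array weights and -0.11 to 0.11 with 1 array left out. Egf was -0.019 with array weights. Nrg1 was -0.30 and Timp3 0.24 with array weights, by which Adam15, Gab1, Nras, Pik3r1 and Lrig1 were among the genes called. Over all settings the list medians ran from -0.07 to 0.06 for shedding, -0.02 to 0.08 for adaptors, -0.16 to -0.0071 for PI3 kinase and STAT, -0.05 to 0.03 for down-regulation and 0.03 to 0.14 for early genes. Leaving out 1 array lowered the count of genes called in some cases and raised it in others. It was 338 without hCG 6 and 586 without Control 7. The cause of these differences between settings was not tested. Members near the filter level are limited by signal over background.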
